A study of Homo sapiens with 7 samples.

Results

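Rb occupancy was examined at the promoters of the nuclear genes for mitochondrial ribosomal proteins. The set held the protein-coding GENCODE 44 genes on chromosomes 1 to 22 and X whose symbol is MRPL or MRPS followed by a digit. It comprised 78 of 19626 protein-coding genes with an annotated protein-coding start site, of which 49 were large subunit (MRPL) and 29 small subunit (MRPS) genes. A gene was counted as called in a library when a peak overlapped the window from 2000 bp upstream to 500 bp downstream of any of its transcription start sites (TSSs).

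Mitochondria carry their own ribosome, the mitoribosome, which translates the few proteins encoded by mitochondrial DNA, all of them subunits of the oxidative phosphorylation complexes. The RNAs of the mitoribosome are made in the mitochondrion, whereas its proteins are encoded in the nucleus, translated in the cytosol and imported. Rb, the product of the tumour suppressor gene RB1, is a chromatin-associated repressor best known for binding E2F transcription factors at cell cycle gene promoters, and phosphorylation by cyclin-dependent kinases releases it.

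Peaks came from CUT&RUN, in which an antibody directs a nuclease to a chromatin protein and the released DNA is sequenced, in the ZR-75-1 line, which was derived from a breast cancer and expresses the oestrogen receptor. The parental line received 500 nM of the CDK4/6 inhibitor palbociclib or an equal volume of DMSO for 4 days, and each arm had 2 Rb libraries that the study's methods call biological replicates of a single experiment. RB1 knockout (RB1 KO) cells, derived by CRISPR-Cas9 editing and single-cell sorting, gave 1 Rb library with DMSO and 1 with palbociclib, so genotype and clone cannot be told apart. A non-targeting IgG2a antibody was used on 1 library of palbociclib-treated parental cells. The comparison asks whether Rb sits at these promoters when its kinases are inhibited, and the other 3 libraries serve as controls for peaks called without Rb or without its antibody.

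The lists carry no read totals. They held 996 and 816 peaks with DMSO, 8399 and 8256 with palbociclib, 65 and 51 in RB1 KO cells with DMSO and palbociclib, and 2648 with IgG2a. On chromosomes 1 to 22 and X the RB1 KO lists were reduced to 4 and 5 peaks and the IgG2a list to 1724. The number of fragments stacked at each summit was recovered from the deposited fold enrichment and p-value, with exactly 1 whole-number solution for each of 92 member peaks. At members called in both palbociclib libraries it ran from 6 to 70 fragments, so the weakest calls rest on few molecules. Duplicate reads were retained by the authors, and fragments are therefore not all independent molecules.

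No mitochondrial ribosomal protein gene had a promoter peak in either RB1 KO library, against 0.0102% of all protein-coding genes. In the IgG2a library 1 gene was called, against 1.73% of all genes. This was MRPL57, a large subunit gene on chromosome 13, with a fold enrichment of 4.83 over local background. The IgG2a peak had its summit 342 bp downstream of the MRPL57 TSS. It shared no base with the Rb peaks of that promoter, whose summits lay 10 and 236 bp upstream with fold enrichments of 4.57 and 5.84 in the palbociclib libraries. Rb peaks were called against IgG, which makes an Rb peak less likely where IgG signal is high. The lack of overlap is therefore no independent check.

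An Rb peak was called at the promoters of 3 mitochondrial ribosomal protein genes in each DMSO library and of 42 and 43 in the palbociclib libraries. The group means were 3 ± 0 and 42.5 ± 0.707 genes (SD, n = 2 each), a difference of 39.5 genes and a ratio of 14.2. The 2 groups did not overlap, but with 2 libraries in each the exact permutation test over libraries, two-sided, gave p = 0.333, the smallest it can give. All other protein-coding genes went from 997 and 821 to 7607 and 7479, a ratio of 8.3. The palbociclib lists were themselves far longer. When each parental list was held to its 753 strongest peaks, the members called were 2 and 3 with DMSO and 4 and 2 with palbociclib, a difference of 0.5 genes (exact permutation p = 1), and 2.56% of members against 3.51% of other genes were called in both palbociclib libraries. Of other genes, 4.27% and 4.2% were then called with DMSO and 4.23% and 4.31% with palbociclib. Lists of equal length hold the total of called promoters nearly level. This setting therefore compares only the share that these genes took of the strongest peaks. In it, palbociclib peaks below a −log10 q of 44.84 and 45.15 no longer counted.

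**Figure D1:**
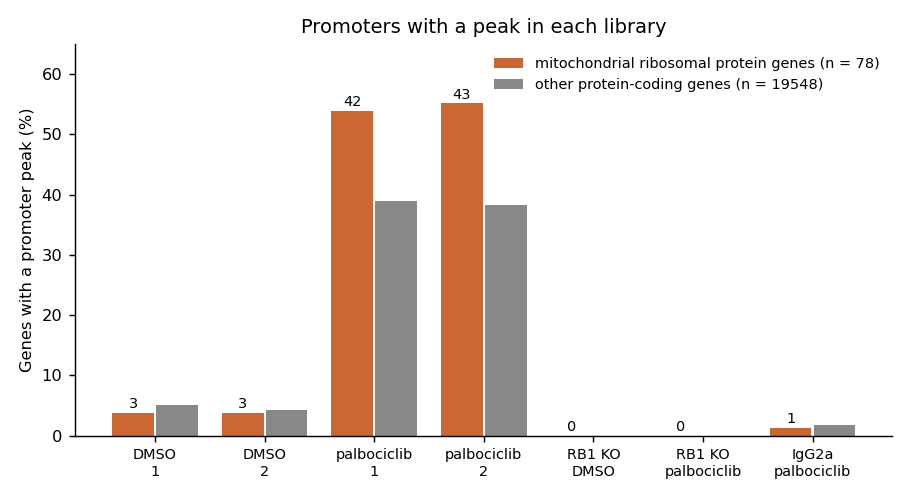
Share of genes with a promoter peak (y axis, %) in each of the 7 libraries (x axis) for the 78 mitochondrial ribosomal protein genes and the 19548 other protein-coding genes; numbers above the coloured bars count members. The bars show 3 members in each DMSO library, 42 and 43 with palbociclib, none in RB1 KO cells and 1 with IgG2a.

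Both palbociclib libraries called 38 of the 78 genes (48.7%), against 34.3% of all protein-coding genes. A peak in at least 1 palbociclib library was present at 47 genes (60.3%), against 43.0% of all. Gained promoters, called in both palbociclib libraries and in no DMSO library, numbered 32 (41%), against 27.9% of all. With DMSO, 6 genes had a peak in at least 1 library (7.69%, against 6.46% of all). None had a peak in both (0%, against 2.83%), so each of the 6 was called in 1 library only. No member was therefore called in all 4 parental libraries, and the planned comparison of fold enrichment over such genes could not be made.

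The 6 members with a DMSO peak were called in 1 DMSO library each and in both palbociclib libraries. MRPL24, a large subunit gene on chromosome 1, had a fold enrichment of 4.91 in DMSO replicate 2, no peak in DMSO replicate 1, and 21.6 and 27.7 in palbociclib replicates 1 and 2. Its peak spanned chr1:156740928-156741695 (hg38) in palbociclib replicate 1 and held the whole DMSO peak, chr1:156741294-156741462. MRPL17, which encodes a large subunit protein conserved from bacteria, had 7.70 in DMSO replicate 2, no peak in DMSO replicate 1, and 20.9 and 22.6 with palbociclib. These 2 genes, with MRPL11, had the highest fold enrichment of all members under palbociclib.

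MRPL11, whose protein belongs to the part of the large subunit that contacts translation factors, had 6.06 in DMSO replicate 1, no peak in DMSO replicate 2, and 26.0 and 17.1 with palbociclib. MRPS25, a small subunit gene on chromosome 3, had 4.86 in DMSO replicate 2 and 12.3 and 12.0 with palbociclib. MRPL58, which encodes a peptidyl-tRNA hydrolase built into the large subunit, had 5.08 in DMSO replicate 1 and 8.74 and 7.62 with palbociclib. At these 5 genes both palbociclib peaks overlapped the DMSO peak, and the palbociclib mean was 1.609 (MRPL58) to 5.024 (MRPL24) times the DMSO value. Over all 6 members with a DMSO peak, MRPS27 included, the median ratio was 2.659. It was 2.789 over 702 other genes called in 1 DMSO and both palbociclib libraries. Fold enrichment was computed within each library, and with 1 DMSO value per gene these ratios have no replicate check.

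MRPS27, which encodes a pentatricopeptide repeat protein of the small subunit, had a DMSO peak at chr5:72320399-72320601 with a fold enrichment of 4.95, and no palbociclib peak shared a base with it. The strongest palbociclib peaks of the gene, with 6.91 and 6.81, lay at another annotated start site, chr5:72308091-72308596 in replicate 1. Palbociclib replicate 1 also had a weaker peak beside the DMSO peak, chr5:72320242-72320395, with a fold enrichment of 5.08 and its summit 115 bp from the DMSO summit. In replicate 2 the nearest summit was 12197 bp away.

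Fold enrichment under palbociclib ranged widely among the 38 genes called in both libraries. The mean of both libraries was 24.65 ± 4.31 (SD, n = 2) at MRPL24, 21.74 ± 1.22 at MRPL17 and 21.55 ± 6.32 at MRPL11. The next was MRPS12, whose protein lies at the decoding centre of the small subunit, with 23.2 and 14.8 in replicates 1 and 2. Then came MRPL34 with 19.2 and 17.7, MRPL37 with 18.5 and 18.1, and MRPL42 with 16.494 and 20.003, all large subunit genes. The order among these 7 genes is not resolved, since the replicate values of neighbouring genes overlap. MRPL18 (15.9 and 12.9), MRPL51 (11.9 and 13.5) and MRPS24 (13.6 and 10.7) completed the 10 highest.

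At the low end MRPS23 had 3.58 and 3.88, MRPL43 4.096 and 3.691, and MRPL38 4.0996 and 4.3623. MRPL21 had 6.40 and 3.52, and MRPS2 had 5.04 and 5.23. The means of these 5 genes, 3.734 to 5.137, lay on both sides of the 4.83 of the IgG2a peak at MRPL57. At MRPS2 the strongest peaks of the replicates did not overlap, with summits 860 bp apart, the only 1 of the 38 such pairs without a shared base. Replicate 2 had a second, weaker MRPS2 peak (4.13) that overlapped the peak of replicate 1. The fold enrichment of a gene is that of its strongest promoter peak, and 4 of the 38 genes had more than 1 promoter peak in a palbociclib library. The mean was under 5 at 4 of the 38 genes, 5 to 10 at 18, 10 to 20 at 13 and above 20 at 3, and among other called genes the same classes held 12.5%, 49.3%, 28.7% and 9.48%. Over the 38 genes the median of the mean fold enrichment was 8.002, beside 8.349 over the 6696 other genes called in both libraries, and the members' median percentile among all called genes was 47.07.

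Between the palbociclib replicates, Spearman's rho of fold enrichment across the 38 genes was 0.88, beside 0.833 across the other called genes, a description over genes of the same 2 libraries. The higher value of a gene was at the median 1.151 times the lower, and at most 1.894 times, at MRPS18B (8.13 and 4.29). Replicate 1 gave the higher value at 25 of the 38 genes (65.8%, beside 51.7% of other called genes). Only 1 palbociclib library called 9 of the 78 genes, beside 1694 of the 19548 other protein-coding genes. Of the 9, MRPL36, MRPL47, MRPL52 and MRPS33 were called in replicate 1 and MRPL2, MRPL20, MRPL28, MRPL55 and MRPS31 in replicate 2. Their fold enrichments ran from 3.195 (MRPL55) to 5.462 (MRPS31).

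**Figure D2:**
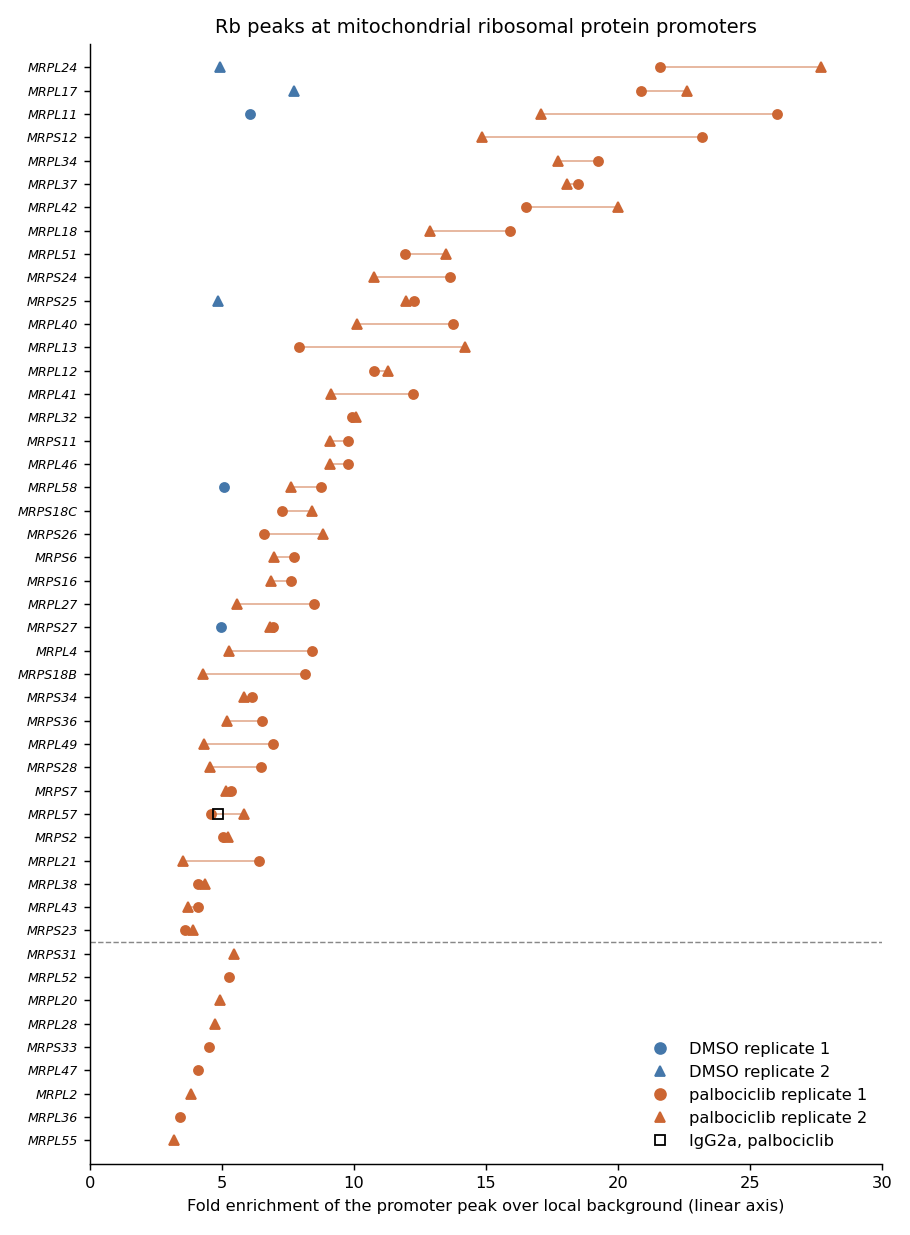
Fold enrichment of the promoter peak over local background (x axis, linear) for the 47 members with a palbociclib peak (rows), by library; circles are replicate 1, triangles replicate 2, a line joins the palbociclib values, and genes under the dashed line were called in 1 palbociclib library. Each of the 6 DMSO points lies left of both palbociclib points of its gene (at MRPS27 the strongest palbociclib peaks are at a different start from the DMSO peak), and the single IgG2a point lies between the palbociclib values of MRPL57.

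No palbociclib peak was present at 31 of the 78 members, beside 11158 of the 19548 other protein-coding genes. Of the 31 members, 20 belonged to the large and 11 to the small subunit. In order of symbol the first of these were MRPL1, MRPL10, MRPL14, MRPL15 and MRPL16. Their nearest palbociclib peak lay at a median distance of 51899 bp from a TSS (range, 3017 bp at MRPL22 to 1251982 bp at MRPS30), and 4 of the 31 had one within 10000 bp. An absent peak says that none passed the q-value cutoff, and not that Rb was absent.

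Called genes belonged to both subunits. Both palbociclib libraries called 22 of 49 large subunit genes (44.9%) and 16 of 29 small subunit genes (55.2%), beside 34.3% of all protein-coding genes. The median fold enrichment of the called genes was 10.84 in the large and 7.043 in the small subunit, over ranges of 3.894 to 24.65 and 3.734 to 19. MRPS36 was kept by its symbol although its protein is now assigned to the oxoglutarate dehydrogenase complex, and its values were 6.52 and 5.19 with palbociclib.

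Summits stood close to the start sites. For the 38 called genes the mean palbociclib summit lay a median of 128.5 bp from the nearest TSS of the gene, beside 105 bp for other called genes. Within 250 bp were 32 of 38 (84.2%, beside 82.1% of other called genes), and 24 of 38 lay upstream (63.2%, beside 58.3%). The replicate summits of a gene were at the median 54.5 bp apart. By annotation 17 summits fell inside a protein-coding transcript of the gene itself, 9 of these in coding sequence, 5 in a 5′ UTR and 3 in an intron. A further 10 fell only in a transcript of another protein-coding gene, and 11 in no protein-coding transcript. No share of other called genes is set beside this split, so it is not read as a trait of the members.

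**Figure D3:**
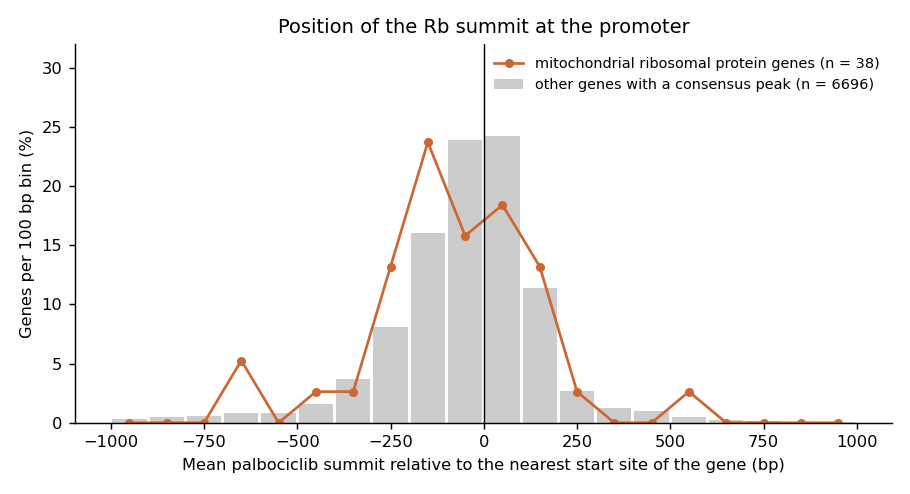
Mean palbociclib summit relative to the nearest start site of the gene (x axis, bp; negative is upstream) as the share of genes per 100 bp bin (y axis, %), for the 38 called members (line) and 6696 other called genes (grey bars). In both classes most summits lie within 250 bp of the start site, and the separate points far from it are MRPL18 and MRPL40 upstream and MRPL34 downstream.

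By GENCODE protein-coding starts, the farthest summits of the strongest peaks lay nearer to the start of a neighbouring gene than to the member's own. At MRPL18 the summits were 670 and 702 bp upstream of the nearest GENCODE protein-coding start but 78 bp from the start of TCP1, which encodes a subunit of the cytosolic chaperonin. The RefSeq start of MRPL18 is further upstream, and from it the summits lay only 15 and 47 bp away. At MRPL40 they were 647 and 723 bp upstream, and 127 bp from the start of the histone chaperone gene HIRA. At MRPL34 those of the strongest peaks were 574 and 576 bp downstream, and 17 bp from the start of ABHD8. MRPL34 had weaker peaks nearer to its annotated starts, with summits 259 and 251 bp upstream and fold enrichments of 11.4 and 8.10 in replicates 1 and 2, and in replicate 2 a further one (3.88) 45 bp downstream of a start. MRPS11 and MRPL46 are transcribed away from each other, with starts 320 bp apart. The summit they share was 409 and 443 bp upstream of MRPS11 but inside MRPL46. At MRPL13 the summits were 361 and 392 bp upstream, and 107 bp from the start of MTBP, which encodes an MDM2-binding protein.

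Many of these genes share a promoter with a neighbour. A divergent promoter, in which the canonical start of a protein-coding gene on the other strand lies within 1000 bp and points away, was present at 26 of 78 members (33.3%), beside 9.36% of other protein-coding genes. Of the 26, 19 were called in both palbociclib libraries (73.1%, beside 65.6% of other divergent genes). Of the 52 members without a divergent partner, 19 were called (36.5%, beside 31% of such genes). Within each class the members' share was closer to that of other genes than over all genes, where it was 48.7% beside 34.3%. A class was set at the canonical start, whereas a call can lie at any start of the gene. MRPS27, counted as divergent with PTCD2, shared its strongest palbociclib peaks with no other gene. MRPL34, counted without a divergent partner, shared its strongest peaks with ABHD8.

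The same comparison was made among CpG-rich promoters. A promoter was called CpG-rich when GC was at least 50% and the ratio of observed to expected CpG at least 0.6, a division chosen after the members' values had been seen. CpG-rich members were called in 33 of 65 cases (50.8%), beside 49.5% of other CpG-rich genes. With a divergent partner 17 of 21 were called (81%, beside 68%), and without one 16 of 44 (36.4%, beside 46.5%). In the last class members were called less often than other genes and in the class before more often, on small numbers and with no test of either difference. A gene with more annotated starts also has more windows in which a peak can fall. In a further division chosen after the values had been seen, members with 1 TSS were called in 54.5% of cases, beside 19.5% of other genes, those with 2 to 4 TSSs in 47.4%, beside 33.6%, and those with 5 or more in 44.4%, beside 47.1%.

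**Figure D4:**
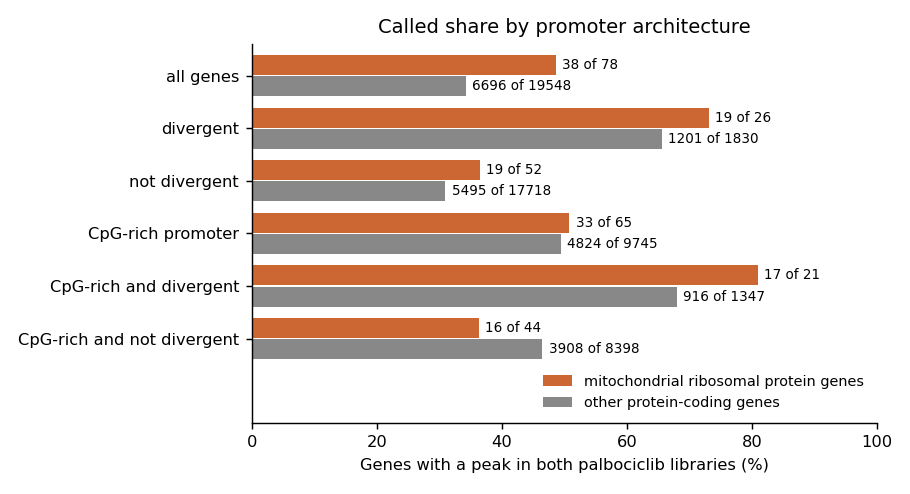
Share of genes with a peak in both palbociclib libraries (x axis, %) for members and other protein-coding genes, by promoter class (rows), with the counts beside each bar. Among all genes the member bar is the longer, among CpG-rich promoters the bars are nearly equal, and among CpG-rich promoters without a divergent partner the member bar is the shorter.

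The peaks of 23 of the 38 called members (60.5%, beside 28.7% of other called genes) were also promoter peaks of another protein-coding gene in both libraries. The mean summit was nearest to the member's own start at 25 genes and equally near to both at MRPL32, together 68.4%, beside 84.6% of other called genes. At 12 members another gene's start was nearer. These counts use GENCODE protein-coding starts, and at MRPL18, counted among the 12, the member's own RefSeq start was nearer than that of TCP1. MRPS12 shared its peak with SARS2, the mitochondrial seryl-tRNA synthetase gene, with the summit 11 bp from the SARS2 start. MRPL43 shared its peak with TWNK, the gene for the helicase that replicates mitochondrial DNA, and MRPL49 with FAU, which encodes a cytosolic ribosomal protein. For these 3 pairs both genes serve translation or mitochondrial DNA.

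Further partners have other roles, except that MRPL46 and MRPS11, both mitoribosomal, shared 1 peak. MRPL57 shared its peak with SKA3, a kinetochore gene, and the summit was 12 bp from the SKA3 start. MRPS18C shared its peak with the DNA helicase gene HELQ, MRPL21 with the helicase gene IGHMBP2, and MRPS7 with GGA3, which encodes a Golgi sorting adaptor. Where the member's own start was nearer, MRPL51 shared its peak with the condensin gene NCAPD2, MRPL27 with the endonuclease gene EME1, and MRPL37 with CYB5RL. At MRPL51 the nearer start was a GENCODE one, 62 bp from the mean summit, which fell in an intron of NCAPD2. From the RefSeq start of MRPL51 the summits lay 643 and 639 bp upstream. A shared peak cannot be assigned to one of the genes it covers, and the 38 called members rested on 37 distinct peaks.

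The 3 genes with the highest fold enrichment, MRPL24, MRPL17 and MRPL11, had no divergent partner and shared their peaks with no other gene, and neither did MRPL42, MRPS24, MRPS25 and MRPL58. Fold enrichment at MRPL58 was 8.18, near the median of 8.002 over the 38 called members. The remaining called members that shared their strongest peaks with no other gene had lower values, from 3.734 (MRPS23) to 7.709 (MRPS26). Whether a neighbour accounts for a peak was not tested. MRPL17 had its summits 117 and 48 bp upstream of the start. MRPL11 had both summits 134 bp downstream of a start, in coding sequence of that gene.

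Promoter sequence was read from the RefSeq promoter table (GRCh38.p14, 250 bp before to 50 bp after the gene start), which matched 69 of the 78 members, 34 of them called in both palbociclib libraries. The E2F motif was searched as TTTCCCGC, TTTGGCGC, TTTGCCGC or TTTCGCGC on both strands, and other motifs searched may overlap it. It was present in 6 of the 34 called members (17.6%, exact binomial 95% interval 6.76 to 34.5%) and in 0 of the 35 others (0 to 10%). The motif was held by 7.44% of other called promoters, 2.79% of other uncalled promoters and 4.49% of all promoters in the table. Both palbociclib summits lay inside the searched window at only 12 of the 34 called members, and at MRPL34 and MRPS27 they were on average 10869 and 11965 bp from the RefSeq start, so the sequence searched is often not the sequence under the peak. Stretches of 100 bases of these 6 promoters are given because E2F proteins are the classical DNA-binding partners of Rb. They are read along the gene's strand, with the E2F motif in capitals.
MRPL18, chr6:159789712-159789811, strand +: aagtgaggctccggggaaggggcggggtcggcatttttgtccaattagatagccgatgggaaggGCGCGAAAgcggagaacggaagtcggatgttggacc
MRPL37, chr1:54200067-54200166, strand +: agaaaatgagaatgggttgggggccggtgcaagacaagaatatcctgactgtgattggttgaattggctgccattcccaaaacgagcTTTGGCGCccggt
MRPL42, chr12:93467391-93467490, strand +: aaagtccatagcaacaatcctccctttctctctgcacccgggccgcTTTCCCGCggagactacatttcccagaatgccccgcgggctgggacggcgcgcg
MRPL46, chr15:88467389-88467488, strand -: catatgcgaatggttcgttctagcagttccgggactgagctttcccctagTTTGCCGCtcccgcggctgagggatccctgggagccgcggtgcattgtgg
MRPL58, chr17:75012524-75012623, strand +: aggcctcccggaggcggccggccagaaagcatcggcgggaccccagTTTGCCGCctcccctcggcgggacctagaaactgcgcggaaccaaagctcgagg
MRPS7, chr17:75261694-75261793, strand +: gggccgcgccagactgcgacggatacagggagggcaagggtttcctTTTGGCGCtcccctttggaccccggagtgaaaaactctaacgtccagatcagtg

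In MRPL58 and MRPL18 the motif lay at the Rb summit, 3 and 27 bp from the replicate summits of MRPL58 and 17 and 15 bp from those of MRPL18. At MRPL18 it reads GCGCGAAA along the gene, the reverse complement of TTTCGCGC. In MRPL37 the motif ends 6 bp before the RefSeq start, 188 and 127 bp from the summits. In MRPL46 it was 136 and 170 bp from them, in MRPL42 116 and 252 bp, and in MRPS7 226 and 231 bp. Fold enrichment in these 6 genes ran from 5.249 (MRPS7) to 18.27 (MRPL37). In the 100 bp to each side of the summit, 4 of the 38 called members held the motif (10.5%, beside 5.84% of other called genes), here MRPL12, MRPL18, MRPL40 and MRPL58.

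The YY1 motif, searched as AAGATGGCG on both strands, was present in members with and without an Rb peak. YY1 is a zinc-finger factor that binds many promoters of genes for mitochondrial and ribosomal proteins. The motif was present in 13 of 69 member promoters (18.8%, interval 10.4 to 30.1%), beside 2.8% of all promoters. It was held by 6 of 34 members called in both palbociclib libraries (17.6%) and 7 of 35 others (20%). Among these others, MRPL36 and MRPL52 were called in palbociclib replicate 1 only. Stretches of 6 promoters show the same letters in members with and without an Rb peak. The first 3 are the called members with the highest fold enrichment among those with the motif, and the last 3, the first by symbol with the motif ending at most 30 bp past the start, had no palbociclib peak. The motif is in capitals.
MRPL42, chr12:93467431-93467530, strand +: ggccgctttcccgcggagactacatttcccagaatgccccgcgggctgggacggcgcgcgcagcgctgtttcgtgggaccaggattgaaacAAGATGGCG
MRPS24, chr7:43869490-43869589, strand -: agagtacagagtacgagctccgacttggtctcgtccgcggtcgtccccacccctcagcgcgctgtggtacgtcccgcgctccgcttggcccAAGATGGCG
MRPL32, chr7:42932126-42932225, strand +: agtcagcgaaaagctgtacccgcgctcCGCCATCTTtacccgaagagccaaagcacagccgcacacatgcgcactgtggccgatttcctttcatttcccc
MRPS10, chr6:42217844-42217943, strand -: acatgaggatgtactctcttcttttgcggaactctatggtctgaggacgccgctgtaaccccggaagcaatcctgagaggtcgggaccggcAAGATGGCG
MRPS18A, chr6:43687774-43687873, strand -: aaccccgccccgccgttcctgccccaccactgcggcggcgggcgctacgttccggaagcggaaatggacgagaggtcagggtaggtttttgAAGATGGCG
MRPS30, chr5:44808869-44808968, strand +: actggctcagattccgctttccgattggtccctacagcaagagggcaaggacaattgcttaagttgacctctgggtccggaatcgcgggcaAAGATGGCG

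In 5 of these 6 the motif lies a few bases downstream of the RefSeq start, and in MRPL32 it lies upstream on the other strand. The palbociclib summits of MRPL42 were 31 and 167 bp from it and those of MRPS24 71 and 95 bp. MRPL42 held both the YY1 and the E2F motif, and so did MRPL46. A match describes the letters in the window and not a bound site.

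Of the other motifs, ETS (CCGGAAGT) was present in 11 of 69 member promoters (15.9%, beside 6.31% of all promoters) and NRF1 (GCGCANGCG), named for a factor known to control nuclear genes of mitochondria, in 13 (18.8%, beside 11.1%). Both were held by a larger share of members without a consensus peak, 20% and 25.7%, than of called members, 11.8% each, with intervals that overlap. In other genes the order was the opposite, with NRF1 in 17.4% of called and 7.46% of uncalled promoters. NFY (CCAAT) was present in 29.4% of called members and 28.6% of the others, beside 36.5% of all promoters. SP/KLF (GGGCGG) was present in 64.7% and 57.1%, beside 59.2% of all promoters and 77.9% of other called promoters. The cell cycle element CHR (TTTGAA) was held by 3 called members (8.82%) and 1 other (2.86%), beside 12.1%, and the CRE (TGACGTCA) by none of the 69, beside 2.64%.

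**Figure D5:**
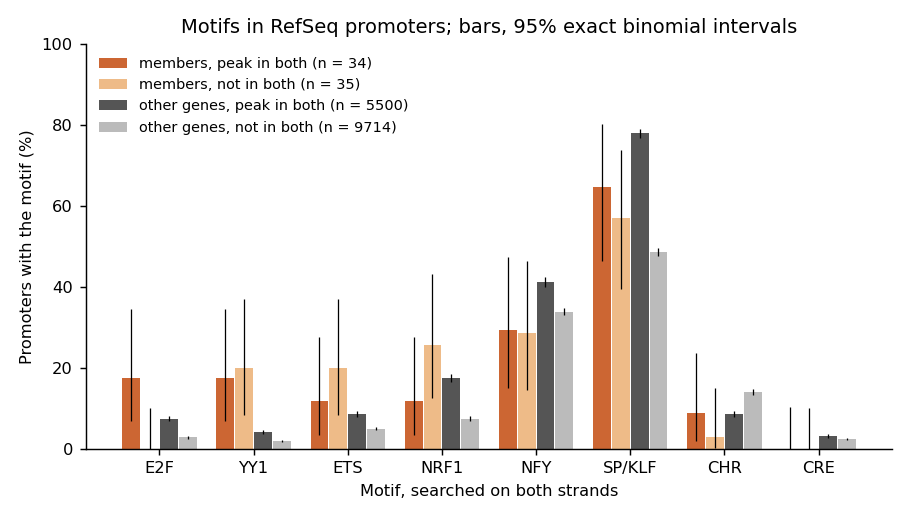
Share of RefSeq promoters holding each motif (y axis, %; x axis, motif) for members and other genes with and without a peak in both palbociclib libraries; error bars are exact binomial 95% intervals, which cover counting error only. E2F matches were found in called members and in none of the 35 other members, whereas YY1 matches were found in both classes of member at similar shares.

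Of 80 other genes for mitochondrial translation and mitochondrial DNA expression, 37 (46.2%, beside 34.3% of all protein-coding genes) were called in both palbociclib libraries and 6 had a DMSO peak, beside 6.46% of all genes. None had a peak in RB1 KO cells, and 3 (3.75%) had one with IgG2a, beside 1.73%. SARS2 and TWNK are counted here through peaks they share with MRPS12 and MRPL43.

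Assembly factors were called in 15 of 27 cases (55.6%, beside 34.3% of all genes). TFB1M, the methyltransferase that modifies the small subunit ribosomal RNA, had the highest fold enrichment of these lists, 26.4 and 34.8 with palbociclib. It was also called in both DMSO libraries, with 5.24 and 8.83. MTERF3 had 3.70 in DMSO replicate 1 and 23.4 and 14.8 with palbociclib, and METTL17 had 5.09 and then 7.34 and 7.41.

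Mitochondrial tRNA synthetases and amidotransferase subunits were called in 10 of 22 cases (45.5%, beside 34.3% of all genes). WARS2, for tryptophanyl-tRNA, had 7.097 in DMSO replicate 1 and 15.8 and 25.2 with palbociclib. Translation factors were called in 5 of 15 cases (33.3%), led by the release factor family gene MTRFR with 17.5 and 18.0. The release factor gene MTRF1L had 5.09 in DMSO replicate 1 and 13.2 and 12.2 with palbociclib.

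Mitoribosomal proteins with other symbols were called in 3 of 7 cases (42.9%, beside 34.3% of all genes), with PTCD3 highest at 7.26 and 7.75. Genes of mitochondrial DNA transcription and replication were called in 4 of 9 cases (44.4%), with the transcription factor gene TFB2M highest at 7.58 and 8.71. Cytosolic ribosomal protein genes, the counterpart set, were called in 25 of 89 cases (28.1%), with a median fold enrichment of 6.455 and 15.7% with a divergent promoter. Nuclear genes of the respiratory chain were called in 31 of 90 cases (34.4%), with a median of 7.364 and 27.8% divergent. The shares are set side by side as a description, and no difference between these sets was tested.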

How the data were processed

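Reads had been trimmed and mapped to hg38 by the authors (Bowtie2 2.3.4.1) with duplicates kept, and MACS2 2.2.7.1 called peaks in each library against IgG at a q-value cutoff of 0.05. The control used for the IgG2a list is not given in the sources used here. The deposited peak lists give a display score, the fold enrichment (a ratio of pileup over background), and the −log10 p-value and −log10 q-value, all as written by the authors' peak caller. The score was not analysed.

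Peaks on chromosomes 1 to 22 and X were joined to GENCODE 44 protein-coding start sites (Python 3.11.15, numpy 2.4.6, scipy 1.17.1), with an overlap of at least 1 bp. Chromosome lengths were checked against hg38, and 344 genes without a protein-coding start site were left out. The peak of highest fold enrichment stood for a gene. A gene was called in a group when it was called in both libraries. Libraries were compared by exact permutation, and all other comparisons are counts beside the background. Pileups were recovered by matching the deposited p-value within 0.001, and the procedures were tested on simulated data. Intervals are exact binomial at 95% and cover counting error only.

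Genes were named by rule: every member with a DMSO, RB1 KO or IgG2a peak, the 10 highest and 5 lowest mean fold enrichments, the 5 farthest summits, members called in 1 palbociclib library, the first 5 uncalled, and for each pathway list the highest gene and those with a DMSO peak. 1 gene that this rule names is not reported here. Genes named for a shared peak, a motif or an alternative start were chosen after their values were seen. The members and lists were chosen with earlier results of these data known. Alternatives covered the promoter window, the start sites, the peak threshold, list length and single libraries.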

Additional observations from a re-analysis of the deposited data

How the results depend on the processing

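Members called in both palbociclib libraries stayed between 28 (−log10 q of at least 5) and 43 (one palbociclib library alone) of 78 under all alternatives but lists of equal length, where 2 remained. Under the other 5 whole-list alternatives 35.9 to 48.7% of members were called, beside 26.3 to 33.7% of other genes. The median fold enrichment of 8.002 was 7.824 with a window of 500 bp to each side, 8.18 with canonical starts, 7.767 with the peak nearest a start, 10.84 at −log10 q of at least 5, 10.34 at a fold enrichment of at least 5 and 23.19 with lists of equal length, where only stronger peaks were kept in the last 3. Leaving out each library in turn gave medians of 6.975 to 8.022, summit distances of 120 to 146 bp, 38 to 43 called members, differences of 39 to 40 genes, and 0 to 3 members called with DMSO. That last count was 3 without DMSO replicate 1 and 3 without DMSO replicate 2, because a group of 1 library needs no agreement. The single control peak, at MRPL57, was lost with either threshold (0 members). The share of called members with the SP/KLF motif was 64.7% in the RefSeq promoter and 44.7% around the summit. That of other called genes was 77.9% and 68.7%. The promoter window runs from 250 bp before to 50 bp after the gene start, the shorter summit window 100 bp to each side. They cover 34 and 38 called members, and the cause of the difference was not tested. With the replicate block the difference stayed 39.5 (exact sign-flip permutation p = 0.5, the smallest it can give). Nothing in the sources ties libraries of the same number, and across 556 genes called in all 4 parental libraries their deviations correlated at 0.068. With 2 libraries a group no alternative could pass 0.05.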
